A study of Mus musculus with 8 samples.

Results

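Primary hepatocytes attach to whatever surface they are given, and in culture they respond to how rigid it is. The data described here compare the transcriptome of wild-type mouse hepatocytes on a stiff (20 kPa) and a soft (1 kPa) hydrogel, over all 14279 genes that passed a filter on low counts out of 56748 in the deposited table. The members are the 2 wild-type libraries of each gel, 4 of the 8 libraries in the series, and each tested gene is described by its change between the gels. The other 4 libraries come from Yap/Taz HepKO hepatocytes on the same gels and serve here only as a comparison.

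Wild-type cells came from C57BL/6J mice aged 7 to 8 weeks that carried Yap fl/fl and Taz fl/fl alleles and had received the control virus AAV8-TBG-Null, so they hold the floxed alleles without recombination. Knockout cells came from the same floxed mice given AAV8-TBG-Cre, in which the TBG promoter restricts Cre to hepatocytes, so other liver cells keep Yap and Taz. Hepatocytes were isolated 10 days after the virus by collagenase perfusion and a density gradient, plated on collagen-coated polyacrylamide gels and harvested after 24 h. The labels do not say whether the 2 libraries of a group came from separate mice or cultures. The p-values therefore measure only the spread between these libraries, which may be technical.

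Cells probe a surface through integrins, which link collagen outside the cell to actin filaments inside it. On a rigid surface actomyosin tension builds up, focal adhesions grow, and the coactivators YAP and TAZ enter the nucleus, where they work with TEAD factors. Hepatocytes on rigid dishes are known to flatten, to lose part of their liver-specific gene expression and to approach the cell cycle, whereas compact cells on soft or embedded surfaces keep more of it.

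The wild-type libraries held 18324083 to 26442310 counts and the knockout libraries 19660694 to 25183704. All 18 hepatocyte markers passed the filter on low counts and summed to 104236 and 104502 CPM (counts scaled to library size, with TMM normalization) on soft and 108529 and 110111 CPM on stiff, with Alb, albumin, the highest of them per length. Of these markers 1 rose, Ass1, and 4 fell, Tat, Asgr1, Hnf4a and Cyp2e1. The stated sex is in conflict, since the design text gives female mice and the growth protocol male mice. Xist held 4818 to 8443 counts in all 8 libraries, and Kdm5d, Eif2s3y, Uty and Ddx3y on the Y chromosome held 0 in each. Yap1 held 99.8 and 95.5 CPM on soft and 140.5 and 135 CPM on stiff in wild type, with 29.2, 31.8, 28.4 and 31.3 CPM in the knockout libraries. Wwtr1, the gene of TAZ, held 42.5 and 41.5 CPM on soft and 63.9 and 65.2 CPM on stiff, with 16.002, 16.6, 15.7 and 13.7 CPM in the knockout. Both were lower in all 4 knockout libraries than in any wild-type library. Their change with stiffness was near the log2 limit of 0.5 used here for a call. Wwtr1 passed it (log2 fold change 0.62, standard error 0.070, edgeR adjusted p = 1.06e-06) and Yap1 did not (log2 fold change 0.49, edgeR adjusted p = 1.69e-06), although it passed under 5 alternatives, with log2 changes from 0.50 to 0.53.

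The stiff gel changed a large part of the transcriptome in about equal numbers up and down. A gene was called where the adjusted p of edgeR's quasi-likelihood test was under 0.05 and the log2 fold change over 0.5 in size. By this rule 1432 genes rose (10.0% of those tested) and 1322 fell (9.26%), together 19.3%. Among the called genes, 1430 of the rises and 1318 of the falls had no overlap between the 2 stiff and the 2 soft libraries. Over all 14279 genes tested, called or not, both stiff libraries lay above both soft ones for 4861 (34.04%) and below for 4972 (34.8%). Of the called genes named here, Rpl17 was the exception, so for every other one both stiff libraries lay on the same side of both soft libraries. The changes were mostly moderate. The median size of a called change was 0.93 on the log2 scale, 699 rises and 545 falls passed a log2 change of 1, and 183 rises and 132 falls passed 2. The median over all genes tested was -0.01, and 72.0% of them lay within 0.5 of 0. Of the 4 wild-type libraries' variance, the first principal component took 74.4% and placed the soft libraries at one end and the stiff libraries at the other.

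**Figure D1:**
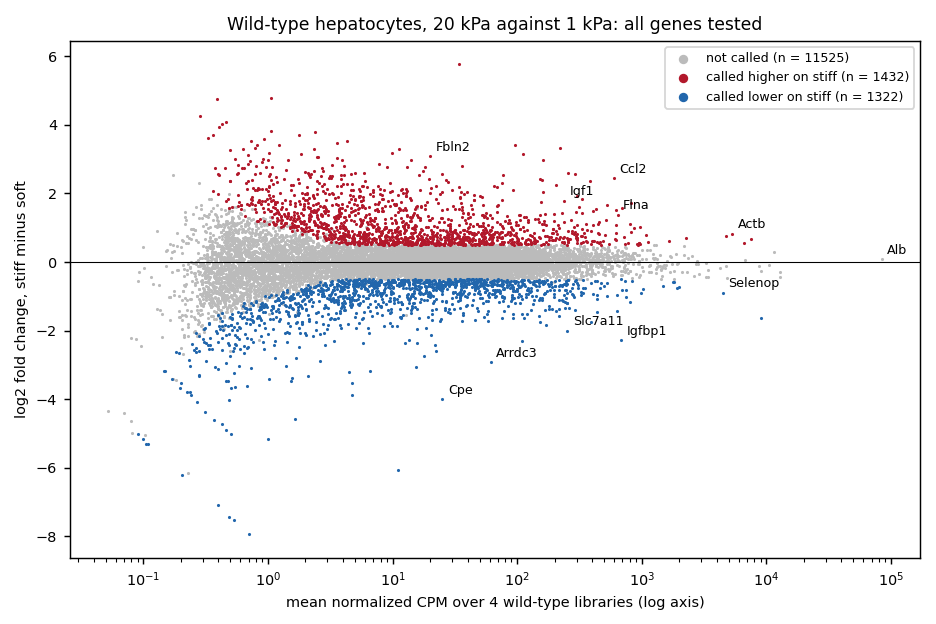
Log2 fold change of each tested gene, stiff minus soft, against its mean level in normalized CPM over the 4 wild-type libraries on a log axis. Red points are the 1432 genes called higher and blue points the 1322 called lower and grey points the rest. Calls of both kinds occur over the whole range of levels, from rare to very abundant genes.

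CPM correct for library size but not for gene length. In these units the genes called higher summed to 74172 and 75485 CPM on soft and 136536 and 135192 CPM on stiff. The genes called lower summed to 110053 and 109277 CPM on soft and 57967 and 58166 CPM on stiff. The largest single exchanges were in very abundant messages. Among the falls, Selenop, the secreted carrier of selenium, went from 5915 and 5773 to 3129 and 3164 CPM (log2 fold change -0.89, standard error 0.024, edgeR adjusted p = 4.86e-15). Gstm1, a glutathione transferase, went from 2409.8 and 2571 to 1514 and 1497 CPM, and Igfbp1, a binding protein of insulin-like growth factors, from 1119 and 1152 to 236 and 231 CPM. Among the rises, the largest gain in CPM was that of Clu, a secreted chaperone, from 5622 and 6038 to 9324 and 9133 CPM. It was followed by Actb, the cytoplasmic beta-actin, from 3715 and 3932 to 6863 and 6703 CPM, and by the simple-epithelium keratins Krt8 (5213 and 5513 to 7957 and 7918 CPM) and Krt18 (3477 and 3572 to 6027 and 5889 CPM). Within each pair of libraries these values were close, and the pairs were far apart. Alb itself moved little, with 81618 and 82227 CPM on soft and 85829 and 87361 CPM on stiff (log2 fold change 0.08).

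**Figure D2:**
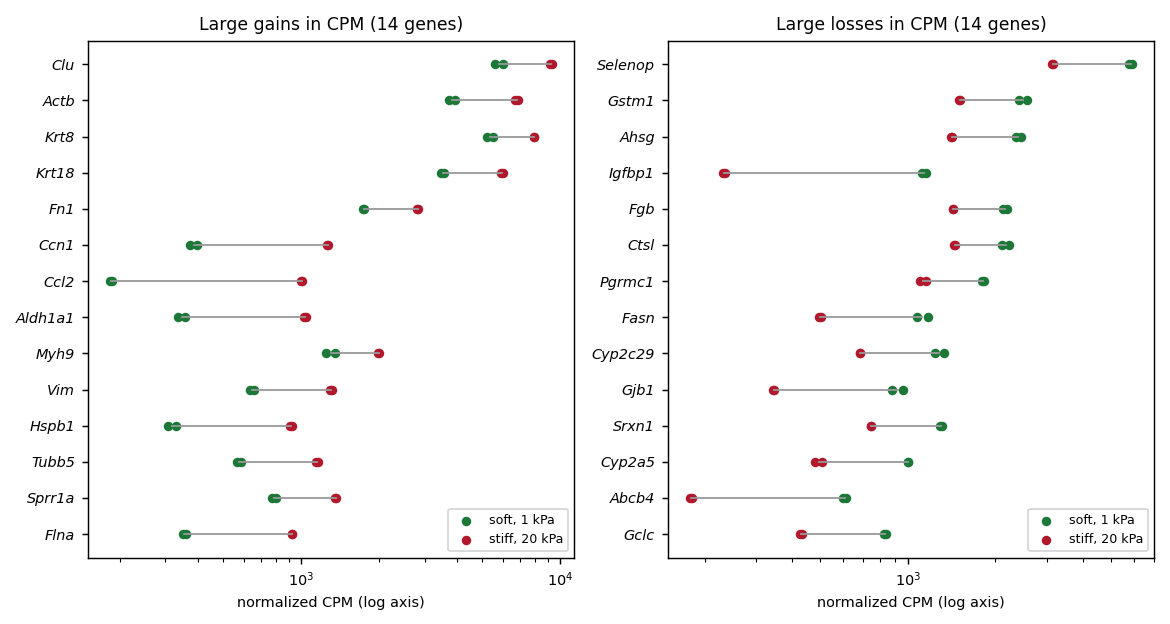
Level of 14 of the 15 genes with the largest gain and 14 of the 15 with the largest loss in CPM among called genes, each as 2 soft (green) and 2 stiff (red) libraries on a log axis of normalized CPM. Actin, keratins, fibronectin and Flna stand among the gains, and Igfbp1 shows the widest gap among the losses plotted.

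To see which functions these genes belong to, 53 lists of hepatocyte, cytoskeletal, growth and signaling genes and 6 lists of cell type markers were laid over the comparison. By theme, 47.4% of 190 genes of cell shape and adhesion and 65.5% of 177 genes of the cell cycle were called higher, beside 10.0% over all genes. Of 131 genes for secreted liver proteins 24.4% were called lower, and of the genes of liver metabolism 21.6%, beside 9.26% over all genes. Of 402 genes of the machinery of gene expression, 2.74% were called higher and 3.98% lower. The lists were put together with results from these samples known, so their counts are descriptions and carry no test of the list.

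**Figure D3:**
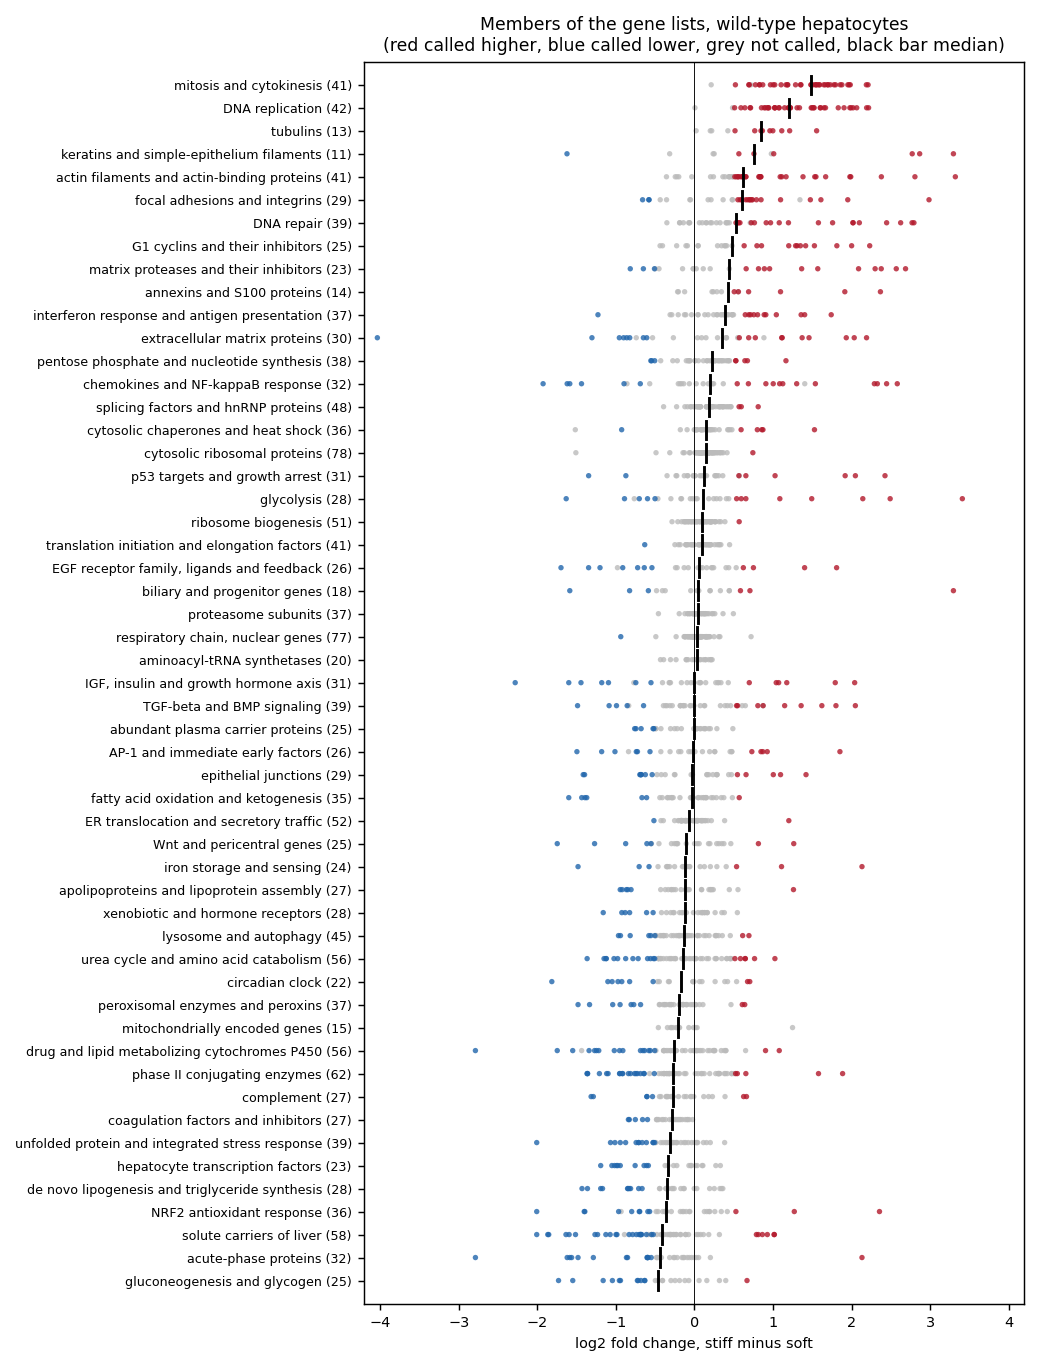
Log2 fold change, stiff minus soft, of each tested member of 53 gene lists, with the number tested in parentheses, ordered by the list median (black bar). Members called higher are red, called lower blue and not called grey. Mitosis and DNA replication genes lie almost wholly to the right, and gluconeogenesis, acute-phase and solute carrier genes have the lowest medians.

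Genes of the actin cytoskeleton rose in most cases. Of 41 actin filament and actin-binding genes tested, 27 rose and none fell (edgeR), with a median log2 change of 0.62 against -0.01 over all genes. At an unadjusted p under 0.05, 35 were higher and 2 lower, and under DESeq2 and the other alternatives with the same limits 24 to 29 rose and none fell. Their summed level was 13560.0 and 13948 CPM on soft and 22992 and 22886 CPM on stiff. Cnn2, a calponin that binds and stabilizes actin filaments, was at 8.55 and 9.72 CPM on soft and 65.3 and 61.8 CPM on stiff, a 6.996-fold rise (log2 fold change 2.81, standard error 0.10, edgeR adjusted p = 1.35e-13). Actn1, the alpha-actinin that cross-links filaments, went from 245 and 258 to 789 and 813 CPM (log2 fold change 1.67, standard error 0.043, edgeR adjusted p = 2.19e-15). Filamins, which join actin into networks and tie it to integrins, rose as well. Flna went from 351 and 359 to 926 and 924 CPM and Flnc from 44.3 and 52.3 to 254 and 263 CPM. The formin Diaph3 and the contractile ring scaffold Anln, both also used in cytokinesis, rose 3.97-fold and 3.94-fold at low levels. Myh9, the heavy chain of non-muscle myosin that pulls on these filaments, was at 1251 and 1357 CPM on soft and 1998 and 1987 CPM on stiff. Actb, the most abundant member per length, rose 1.77-fold (log2 fold change 0.83, standard error 0.035, edgeR adjusted p = 1.65e-12). Both stiff libraries were above both soft libraries in each of these genes, from the rare Diaph3 to the abundant Actb.

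Serum response factor binds the CArG box and drives many actin genes in other cells, so the promoters of these genes were searched for it. In RefSeq's windows (GRCm38.p6, 250 bases before to 50 after the start, 1 window a gene), a CArG box was present in 5 of the 39 actin genes with a window (12.8%), against 1.33% of 10330 tested genes and 1.57% of all 27025 genes with one. The TEAD word CATTCC, on either strand, was in 9 of the 39 (23.1%), against 12.1% of tested genes and 14.6% of all. With only the 250 bases before the start read, it was in 8 of the 39 (20.5%), against 10.7% of tested genes. In that shorter window it was in 7 of 23 coagulation promoters (30.4%) and 0 of 20 gluconeogenesis and glycogen promoters. In both of those lists the called genes mostly or all fell. Neither word contains the other. A match says only that the letters are there. The 250 bases before the start of 2 rising actin genes that hold a CArG box are shown 5′ to 3′ from RefSeq, with the box in capitals: Cnn2 at chr10:79988350-79988599, plus strand, and Actg1, the other cytoplasmic actin, which was picked after its values were seen, at chr11:120348496-120348745, minus strand.
Cnn2: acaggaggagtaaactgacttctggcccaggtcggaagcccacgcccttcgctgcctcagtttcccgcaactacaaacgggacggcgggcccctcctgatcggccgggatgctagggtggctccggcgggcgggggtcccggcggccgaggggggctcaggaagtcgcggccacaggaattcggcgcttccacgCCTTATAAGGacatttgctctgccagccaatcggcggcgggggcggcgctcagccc
Actg1: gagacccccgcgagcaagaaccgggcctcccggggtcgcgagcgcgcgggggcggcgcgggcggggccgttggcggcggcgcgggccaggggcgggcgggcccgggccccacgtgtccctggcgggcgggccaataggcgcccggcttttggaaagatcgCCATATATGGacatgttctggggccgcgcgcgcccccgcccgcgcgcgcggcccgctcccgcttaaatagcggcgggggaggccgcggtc
Cnn2 rose 6.996-fold and Actg1 rose 1.503-fold, from 869 and 918 to 1331 and 1354 CPM.

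Integrins and focal adhesion genes rose in part and fell in part. Of 29 tested, 16 rose (55.2%) and 3 fell (10.3%), beside 10.0% and 9.26% of all genes tested. The median log2 change was 0.60. Itgb6, which pairs with the alpha-v chain to bind fibronectin and to free TGF-beta from its latent form, was at 3.08 and 3.17 CPM on soft and 24.3 and 25.1 CPM on stiff (log2 fold change 2.99, standard error 0.20, edgeR adjusted p = 1.16e-09). Itgb1, the beta chain shared by the collagen and laminin receptors and the most abundant member per length, went from 472 and 459 to 739 and 751 CPM. Its laminin partner Itga3 rose 2.14-fold, the tensin Tns3 rose 1.8001-fold, and Cavin1, a coat protein of caveolae, rose 3.05-fold. Other members fell: Itga6, another laminin receptor chain, was at 150.3 and 151 CPM on soft and 102 and 99.7 CPM on stiff, and Vcl, the gene of the adhesion protein vinculin, at 164 and 159 CPM on soft and 107 and 109 CPM on stiff. So chains for laminin moved in opposite directions, Itga3 up and Itga6 down.

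Extracellular matrix genes moved in both directions. Of 30 tested, 10 rose and 8 fell, and 5 fell under DESeq2 on the 4 wild-type libraries alone or without soft replicate 1. Fn1, fibronectin, which hepatocytes secrete into plasma and matrix, rose from 1740.2 and 1751 to 2822 and 2813 CPM (log2 fold change 0.69, standard error 0.029, edgeR adjusted p = 1.24e-12). Thbs1, the matricellular protein thrombospondin, was at 26.5 and 22.5 CPM on soft and 115 and 111 CPM on stiff (log2 fold change 2.19, standard error 0.077, edgeR adjusted p = 1.22e-13). The basement membrane collagen Col4a2 rose 2.59-fold, the fibril-associated collagen Col12a1 4.095-fold and the laminin chain Lamb3 3.82-fold. Among the falls were Col3a1 (10.3 and 10.9 CPM on soft and 4.97 and 3.56 CPM on stiff), Dcn (11.2 and 10.497 CPM on soft and 6.36 and 5.28 CPM on stiff), Col15a1 and Bgn, matrix proteins made mainly by stellate cells and fibroblasts, all at low levels. The call of Bgn was lost without soft replicate 1 (edgeR adjusted p = 0.0724), without stiff replicate 1 (log2 fold change -0.45, edgeR adjusted p = 0.103) and under DESeq2 on the 4 wild-type libraries (adjusted p = 0.0585). Col3a1 and Dcn also stand in the list of 18 stellate cell and fibroblast markers, of which 13 were tested, 6 fell and 1 rose. The rise was the collagen Col1a1, from a mean of 3.95 CPM on soft to 6.76 CPM on stiff (log2 fold change 0.78, standard error 0.19, edgeR adjusted p = 0.00368). The sum of the tested markers went from 86.4 and 91.4 CPM on soft to 54.3 and 52.99 CPM on stiff. In bulk RNA fewer cells of a type and less RNA per cell cannot be told apart, and the part of such cells in these falls was not tested.

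Enzymes that cut or cross-link matrix, with their inhibitors, rose in 11 and fell in 3 of 23 cases. Plaur, the receptor that holds urokinase at the cell surface, was at 55.5 and 61.1 CPM on soft and 151 and 149 CPM on stiff (log2 fold change 1.36, standard error 0.069, edgeR adjusted p = 1.90e-11). The metalloprotease Adam8 rose 5.198-fold and the collagen cross-linker Loxl2 4.26-fold. Tgm2, a transglutaminase that cross-links matrix and the most abundant member per length, was at 267 and 279.6 CPM on soft and 509 and 503 CPM on stiff. Mmp12 and Mmp19, matrix metalloproteases, fell 1.76-fold and 1.57-fold.

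Intermediate filaments and microtubules rose with actin. Of 11 keratin and simple-epithelium filament genes 6 rose and 1 fell, and of 13 tubulins 9 rose and none fell (edgeR, also none lower at an unadjusted p under 0.05 and none under any alternative with the same limits). Vim, the filament of mesenchymal cells, was at 637 and 657 CPM on soft and 1292 and 1313 CPM on stiff. Krt19, a keratin of bile duct cells that mature hepatocytes lack, was at 1.81 and 2.44 CPM on soft and 21.02 and 20.1 CPM on stiff, a 9.83-fold rise at a low level (log2 fold change 3.30, standard error 0.20, edgeR adjusted p = 1.64e-10). Krt5, a basal-cell keratin, fell from 23.3 and 25.5 to 8.49 and 7.32 CPM. Tubb5 went from 567 and 588 to 1167 and 1141 CPM and Tuba1b from 227 and 221 to 437 and 435 CPM. Tubulins were not uniform, since Tubb2a, the most abundant per length, stood at 597 and 616 CPM on soft and 614 and 618 CPM on stiff. Many tubulins share sequence (72.7% of the 64-base windows of Tuba1b and 45.8% of those of Tubb2a occur in another gene), so the division of reads among them is uncertain.

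Calcium-binding annexins and S100 proteins, which repair and organize the cell membrane, rose in 6 of 14 cases and fell in none (edgeR, 10 higher and 3 lower at an unadjusted p under 0.05, none lower under the alternatives). Anxa3 was at 126 and 122 CPM on soft and 645 and 633 CPM on stiff (log2 fold change 2.37, standard error 0.045, edgeR adjusted p = 3.42e-17), and S100a6 at 123 and 133 CPM on soft and 485 and 478 CPM on stiff (log2 fold change 1.91, standard error 0.047, edgeR adjusted p = 1.16e-15). S100a11, whose transcript shares 39.3% of its windows with other genes, rose 2.14-fold.

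Epithelial junctions changed in composition. Of 29 tested, 5 rose (17.2%) and 8 fell (27.6%), beside 10.0% and 9.26% of all genes tested, and the median was -0.02. Gjb1 and Gjb2, the connexins that form the gap junctions between hepatocytes, fell: Gjb1 from 879 and 964 to 346 and 345 CPM (log2 fold change -1.42, standard error 0.043, edgeR adjusted p = 2.20e-14) and Gjb2 from 241 and 242 to 96.4 and 86.9 CPM (log2 fold change -1.40, standard error 0.050, edgeR adjusted p = 1.68e-13). The tight junction proteins Ocln and Marveld2 fell 1.61-fold and 1.62-fold. The tight junction adaptor Cgn and the claudins Cldn3 and Cldn4 rose, Cgn 2.68-fold, Cldn3 from 229.8 and 223 to 486 and 482 CPM and Cldn4 from 144 and 147 to 293 and 289.6 CPM. Gap junction genes and claudins therefore moved in opposite directions within the same list.

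Genes of the cell cycle rose almost as a block. Of 42 DNA replication genes 40 rose, and of 41 mitosis and cytokinesis genes 39 rose, with median log2 changes of 1.21 and 1.49, and none of either list fell (edgeR, none lower at an unadjusted p under 0.05 and none lower under any alternative with the same limits). Under the alternatives with the same limits, 38 to 41 replication genes and 26 to 39 mitosis genes were called higher. These alternatives include a stricter filter on low counts, which tests fewer genes. Levels stayed low throughout. The summed level of the replication list was 561 and 563 CPM on soft and 1313 and 1286 CPM on stiff, and that of the mitosis list 147 and 144 against 347 and 336 CPM. Pcna, the sliding clamp of DNA polymerase and the most abundant replication gene per length, was at 42.4 and 41.99 CPM on soft and 80.8 and 81.1 CPM on stiff (log2 fold change 0.94, standard error 0.058, edgeR adjusted p = 2.76e-10). Uhrf1, which copies DNA methylation behind the fork, went from 11.6 and 12.996 to 56.6 and 55.4 CPM (log2 fold change 2.19, standard error 0.10, edgeR adjusted p = 2.96e-12). The origin licensing factor Cdc6 rose 4.65-fold, the polymerase subunit Pole 4.19-fold and the histone chaperone subunit Chaf1a 4.06-fold. Among mitotic genes, Mki67, a nuclear protein of dividing cells, was at 4.39 and 4.72 CPM on soft and 18.6 and 16.6 CPM on stiff (log2 fold change 1.95, standard error 0.15, edgeR adjusted p = 8.34e-09). Top2a, which untangles sister chromatids, was at 6.59 and 6.05 CPM on soft and 22.95 and 21.1 CPM on stiff, and Cdk1, the kinase that starts mitosis, at 4.74 and 3.44 CPM on soft and 14.1 and 14.3 CPM on stiff. Racgap1, needed for the cleavage furrow, rose 4.63-fold.

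Promoters of these lists were read for the elements known to time such genes: the E2F site of the start of S phase (TTTCCCGC or TTTGGCGC), the CHR of the later cycle (TTTGAA) and the CCAAT box, each on either strand. None of these words contains another. The CHR word was in 26 of the 34 mitosis promoters with a window (76.5%), against 12.01% of tested genes and 18.1% of all genes. When only the 250 bases before the start were read, it was in 12 of 34 (35.3%). The 12.01% and 18.1% are for the longer window and do not apply to the shorter one. CCAAT was in 26 of the 34 as well (76.5%), against 39.0% of tested genes and 37.9% of all. The E2F word was in 12 of 35 replication promoters (34.3%), against 2.99% of tested genes and 1.63% of all, and in 7 of 35 (20.0%) against 2.53% of tested genes when only the 250 bases before the start were read. Mitosis promoters held the E2F word in 2 of 34, and replication promoters the CHR word in 5 of 35 (14.3%). The mitotic promoters of Top2a (chr11:99024190-99024439, minus strand) and Cdk1 (chr10:69352913-69353162, minus strand) are shown first, from RefSeq in GRCm38.p6, 250 bases up to the start and 5′ to 3′, with the CHR word of either strand in capitals. The replication promoters of Mcm5, a subunit of the replicative helicase (chr8:75109259-75109508, plus strand), and Hells, a chromatin remodeler (chr19:38930740-38930989, plus strand), both picked after their values were seen, follow, with the E2F word in capitals.
Top2a: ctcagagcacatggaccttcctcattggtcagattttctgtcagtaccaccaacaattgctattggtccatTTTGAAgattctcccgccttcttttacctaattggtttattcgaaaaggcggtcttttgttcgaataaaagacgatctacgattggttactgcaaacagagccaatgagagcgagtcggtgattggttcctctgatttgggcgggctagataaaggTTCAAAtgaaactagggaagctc
Cdk1: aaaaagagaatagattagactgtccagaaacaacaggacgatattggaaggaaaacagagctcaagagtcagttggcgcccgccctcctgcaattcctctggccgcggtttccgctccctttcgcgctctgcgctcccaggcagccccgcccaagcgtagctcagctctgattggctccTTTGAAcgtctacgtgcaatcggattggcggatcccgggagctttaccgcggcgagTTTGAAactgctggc
Mcm5: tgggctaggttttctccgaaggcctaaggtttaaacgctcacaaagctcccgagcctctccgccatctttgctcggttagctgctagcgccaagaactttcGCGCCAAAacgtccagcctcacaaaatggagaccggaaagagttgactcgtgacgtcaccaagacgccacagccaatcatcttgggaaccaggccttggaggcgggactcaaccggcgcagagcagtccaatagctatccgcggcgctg
Hells: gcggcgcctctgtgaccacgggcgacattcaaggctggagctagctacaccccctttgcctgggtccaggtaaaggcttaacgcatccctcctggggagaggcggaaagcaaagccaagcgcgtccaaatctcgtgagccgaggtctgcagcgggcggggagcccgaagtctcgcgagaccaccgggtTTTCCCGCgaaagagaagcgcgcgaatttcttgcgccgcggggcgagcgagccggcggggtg
Counted back from the start, the CHR words begin at 179 and 23 bases in Top2a and at 71 and 15 bases in Cdk1, and the E2F words at 149 bases in Mcm5 and 62 bases in Hells. Levels of Top2a and Cdk1 rose 3.47-fold and 3.43-fold, those of Mcm5 and Hells 3.98-fold and 3.03-fold.

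Upstream of S phase, 12 of 25 genes of G1 cyclins and their inhibitors rose and none fell (edgeR, 17 higher and 2 lower at an unadjusted p under 0.05, and 0 or 1 lower under the alternatives). Ccnd1, cyclin D1, which links growth signals to the cycle, was at 18.5 and 21.3 CPM on soft and 68.6 and 70.8 CPM on stiff (log2 fold change 1.81, standard error 0.087, edgeR adjusted p = 9.02e-12). Ccne1, cyclin E1, rose 2.55-fold, Ccne2 2.67-fold and the transcription factor E2f1 2.88-fold. Cdkn1a, the p21 inhibitor and the most abundant member per length, was not called, at 233 and 241 CPM on soft and 222 and 224 CPM on stiff. Of 31 p53 target and growth arrest genes 6 rose (19.4%) and 2 fell (6.45%), beside 10.0% and 9.26% of all genes tested. The rises included Plk2 (64.7 and 60.8 to 262 and 258 CPM) and the stress genes Gadd45b and Gadd45g (3.78-fold and 5.37-fold). The falls were Trp53inp1 (351 and 346 to 135 and 139.5 CPM) and the atypical cyclin Ccng2. DNA repair genes rose in 19 of 39 cases and fell in none (edgeR, 25 higher and 2 lower at an unadjusted p under 0.05, none lower under the alternatives), among them the checkpoint kinase Chek1 (2.99-fold).

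Growth factor signaling moved in both directions. In the EGF receptor family with its ligands and feedback genes, 4 of 26 rose and 7 fell. These were 15.4% and 26.9%, beside 10.0% and 9.26% of all genes tested. The ligands Btc and Areg fell, Btc from 69.1 and 67.5 to 27.3 and 26.4 CPM (log2 fold change -1.35, standard error 0.060, edgeR adjusted p = 3.09e-12) and Areg from 23.4 and 24.5 to 12.3 and 13.1 CPM. The ligand Nrg4 fell too, 2.3001-fold. The receptor Erbb2 rose 3.51-fold at a low level, from 2.35 and 2.78 to 9.16 and 8.69 CPM. Of the feedback genes, Errfi1, which blocks the receptor kinase and is the most abundant member per length, rose from 321 and 305 to 483 and 479.9 CPM, whereas the phosphatases that turn off ERK separated, Dusp5 up 1.68-fold and Dusp4 down 3.25-fold.

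For TGF-beta and BMP signaling 9 of 39 genes rose (23.1%, beside 10.0% of all genes tested) and 5 fell (12.8%, beside 9.26%). Ligands led the rises: Tgfb2 was at 14.7 and 12.6 CPM on soft and 56.7 and 56.9 CPM on stiff (log2 fold change 2.05, standard error 0.10, edgeR adjusted p = 5.84e-12), Inhba, the activin A chain, at 34.2 and 32.6 CPM on soft and 104 and 102 CPM on stiff (log2 fold change 1.62, standard error 0.064, edgeR adjusted p = 5.91e-13), and Bmp4 rose 2.56-fold. The inhibitor Smad7, itself a target of the pathway, rose 2.22-fold. The BMP targets Id1 and Id2 fell 1.57-fold and 2.12-fold, and the hepatic activin chain Inhbe fell 1.99-fold. The call of Id1 was lost under DESeq2 on the 4 wild-type libraries alone (adjusted p = 0.0557).

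Immediate early and AP-1 genes, which react within minutes to many stimuli, rose in 5 and fell in 6 of 26 cases at this time. These were 19.2% and 23.1%, beside 10.0% and 9.26% of all genes tested. Klf5, a zinc finger factor of proliferating epithelium, rose 3.61-fold, Fosl2 1.799-fold, and the survival gene Ier3, the most abundant per length, went from 111 and 110.0 to 209.9 and 210.0 CPM. Klf4, a relative of Klf5 tied to differentiation, fell from 20.8 and 20.99 to 7.43 and 7.37 CPM (log2 fold change -1.50, standard error 0.10, edgeR adjusted p = 8.25e-10). Klf10 fell 2.02-fold, Fosb 2.27-fold and Zfp36, which destabilizes inflammatory messages, 1.67-fold.

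The insulin-like growth factor axis changed in both directions, with 6 of 31 genes up (19.4%) and 7 down (22.6%). Over all genes tested the shares were 10.0% and 9.26%. Igf1, the main endocrine product of growth hormone action in liver, was at 108 and 104 CPM on soft and 369 and 367 CPM on stiff (log2 fold change 1.79, standard error 0.046, edgeR adjusted p = 2.20e-15). Its plasma partners Igfals and Igfbp3 rose 2.26-fold and 2.102-fold, and Socs2, a growth hormone target that dampens its receptor, rose from 15.5 and 15.4 to 61.9 and 65.3 CPM (log2 fold change 2.04, standard error 0.085, edgeR adjusted p = 1.36e-12). Igfbp1, a binding protein that insulin represses and fasting raises, was at 1119 and 1152 CPM on soft and 236 and 231 CPM on stiff, a 4.86-fold fall (log2 fold change -2.28, standard error 0.035, edgeR adjusted p = 6.41e-18). The insulin receptor substrate Irs1 fell 2.72-fold, the adaptor Grb10 2.27-fold and the hormone Fgf21 3.03-fold, from 15.4 and 19.2 to 5.16 and 6.199 CPM.

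Chemokine and NF-kappaB response genes rose in 12 of 32 cases and fell in 6. The monocyte attractant Ccl2 was at 183 and 187 CPM on soft and 1012 and 1002 CPM on stiff (log2 fold change 2.45, standard error 0.041, edgeR adjusted p = 6.65e-18). Csf1, the macrophage growth factor, was at 70.7 and 76.4 CPM on soft and 442 and 437 CPM on stiff (log2 fold change 2.58, standard error 0.052, edgeR adjusted p = 6.81e-17), and the chemokines Ccl7 and Ccl20 rose 5.02-fold and 4.89-fold. Ccl5, an attractant of T cells that T cells themselves also make, fell 3.8004-fold, and Irak3, a brake on Toll-like receptor signals, 2.71-fold. Interferon response genes rose in 11 of 37 cases and fell in 1, Cd74, the invariant chain of antigen-presenting cells, with a median log2 change of 0.39. Irgm1, an interferon-induced GTPase, went from 92.2 and 89.8 to 243 and 238 CPM (log2 fold change 1.40, standard error 0.051, edgeR adjusted p = 1.79e-13), the ubiquitin-like Isg15 from 33.3 and 34.5 to 92.1 and 81.5 CPM, and the antiviral Ifit2 and Ifit3 rose 3.34-fold and 2.06-fold. B2m, the light chain of MHC class I and the most abundant member per length, was not called, at 1438 and 1366 CPM on soft and 1300.3 and 1267 CPM on stiff.

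Liver transcription factors fell where they were called. Of 23 hepatocyte transcription factors 10 fell and none rose (edgeR, none higher and 13 lower at an unadjusted p under 0.05, none higher under any alternative with the same limits). Hnf4a, which keeps hepatocytes differentiated, was at 379 and 365 CPM on soft and 186 and 193 CPM on stiff (log2 fold change -0.98, standard error 0.042, edgeR adjusted p = 2.44e-12). Cebpa, which restrains the cycle in liver, was at 83.2 and 97.5 CPM on soft and 43.2 and 47.5 CPM on stiff (log2 fold change -0.99, standard error 0.075, edgeR adjusted p = 5.08e-09). Mlxipl, the carbohydrate sensor ChREBP, fell 2.29-fold, Creb3l3, a factor of fasting metabolism, 2.07-fold, Prox1 2.02-fold and Atf5, the most abundant per length, 1.69-fold. Of 28 xenobiotic and hormone receptors 6 fell and none rose (edgeR, 2 higher and 11 lower at an unadjusted p under 0.05, 0 or 1 higher under the alternatives). They included the mineralocorticoid receptor Nr3c2 (2.24-fold) and the clock repressor Nr1d2 (1.77-fold). In the circadian clock list 2 of 22 genes rose (9.09%) and 7 fell (31.8%), beside 10.0% and 9.26% of all genes tested. Bhlhe40, a clock repressor, rose from 173 and 183 to 292 and 287 CPM, and the period genes Per2 and Per3 fell 1.96-fold and 2.07-fold. All libraries were harvested at 24 h, and the hour of day is not given in the sources used here.

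Genes of the pericentral zone, which Wnt signals maintain around the central vein, fell where they were called. In the Wnt and pericentral list 2 of 25 rose (8%) and 5 fell (20%), beside 10.0% and 9.26% of all genes tested. Without soft replicate 2 fewer genes of the list were called lower. Axin2, Lgr5, Lef1, Nkd1 and Sp5, also in the list, did not pass the filter, with 0 to 5 counts in a wild-type library. Cyp2e1, which oxidizes ethanol, was at 246 and 223 CPM on soft and 70.4 and 69.5 CPM on stiff (log2 fold change -1.75, standard error 0.051, edgeR adjusted p = 1.08e-14). Cyp1a2 went from 248 and 261 to 107 and 104 CPM (log2 fold change -1.27, standard error 0.046, edgeR adjusted p = 1.68e-13), and Glul, glutamine synthetase of the last cell layer, from 166 and 161 to 85.9 and 92.1 CPM. The receptor genes Fzd4 and Lrp5 rose 2.402-fold and 1.76-fold, and Ctnnb1, beta-catenin, was not called (546 and 549 CPM on soft and 456 and 462 CPM on stiff). Cyp2f2, a cytochrome of the periportal zone, rose from 179 and 179 to 337 and 333 CPM (log2 fold change 0.91, standard error 0.046, edgeR adjusted p = 1.66e-11). It is a single gene from the cytochrome P450 list. No list of periportal genes was made, and a shift between zones was not tested. Biliary and progenitor genes moved in both directions, with 3 up and 3 down of 18 (16.7% each, beside 10.0% and 9.26% of all genes tested). Krt19 and Sox4 rose, and Aqp1 and Onecut2 fell 1.77-fold and 1.501-fold. Spp1, osteopontin, the most abundant of them per length, was at 542 and 507 CPM on soft and 543 and 536 CPM on stiff and was not called.

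The general machinery of gene expression moved little. Of 78 cytosolic ribosomal protein genes, 1 was called higher and none lower (edgeR), although 50 were higher and 1 lower at an unadjusted p under 0.05, and the median log2 change was 0.15. Without soft replicate 1, 4 were called higher and 2 lower. The call, Rpl17, rested on libraries that disagreed (222 and 106 CPM on soft and 339 and 215 CPM on stiff) and was lost under DESeq2, where the adjusted p was 0.194, and under 4 further alternatives with the same limits. Of 51 ribosome biogenesis genes 1 rose, Nhp2, 1.48-fold. Of 41 translation factors 1 fell, Eif4a2, 1.55-fold. Of 48 splicing factors 3 rose: Snrpa1, Hnrnpa1 and Srsf7, from 1.48-fold to 1.76-fold, and Srsf7 fell just under the limit without soft replicate 1 (log2 fold change 0.49). None of 20 aminoacyl-tRNA synthetases and none of 37 proteasome subunits was called (edgeR). At an unadjusted p under 0.05, 6 synthetases were higher and 5 lower, and 12 proteasome subunits higher and 3 lower, and over DESeq2 and the other alternatives with the same limits 0 synthetases and 0 or 1 subunit passed. Cytosolic chaperones rose in 5 (13.9%) and fell in 1 (2.78%) of 36 cases, beside 10.0% and 9.26% of all genes tested, with more rises without soft replicate 1. Hspb1, the small heat shock protein that also caps actin, was at 306 and 329 CPM on soft and 926 and 905 CPM on stiff (log2 fold change 1.53, standard error 0.045, edgeR adjusted p = 1.21e-14), and 49.2% of its windows occur in another gene. Stip1, a co-chaperone, rose 1.81-fold, and Hsp90ab1 was not called, at 2755 and 2693 CPM on soft and 2781 and 2814 CPM on stiff.

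Genes of endoplasmic reticulum stress fell where they were called. Of 39 genes of the unfolded protein and integrated stress response 13 fell and none rose (edgeR, 3 higher and 28 lower at an unadjusted p under 0.05, none higher under any alternative with the same limits), with a median log2 change of -0.31. Ern1, the sensor IRE1, was at 124 and 124 CPM on soft and 61.5 and 56.9 CPM on stiff (log2 fold change -1.07, standard error 0.056, edgeR adjusted p = 3.04e-11), and its target Xbp1 at 356 and 372 CPM on soft and 190.3 and 188 CPM on stiff (log2 fold change -0.94, standard error 0.040, edgeR adjusted p = 1.59e-12). Trib3, a target of ATF4, fell 2.02-fold. P4hb, an abundant folding enzyme, was not called, at 1591 and 1639 CPM on soft and 1456 and 1411 CPM on stiff. The largest fall in the list was that of Slc7a11, the cystine importer that feeds glutathione synthesis, at 415 and 395 CPM on soft and 98.8 and 103 CPM on stiff (log2 fold change -2.01, standard error 0.042, edgeR adjusted p = 1.36e-16). Slc7a11 is also a target of NRF2, the sensor of oxidants. In that list 3 of 36 genes rose (8.33%) and 10 fell (27.8%), beside 10.0% and 9.26% of all genes tested. Gclc, the rate-limiting enzyme of glutathione synthesis, went from 842 and 825 to 430.5 and 424 CPM (log2 fold change -0.96, standard error 0.034, edgeR adjusted p = 1.24e-13), and Srxn1, which repairs peroxiredoxins, from 1305 and 1286 to 746 and 744 CPM. The exporter Abcc4 fell 2.63-fold and the reductase Cbr3 2.64-fold. Gpx3, a secreted peroxidase, rose 2.41-fold. Of the secretory pathway itself, 1 of 52 genes rose, the signal peptidase subunit Spcs3 (103 and 94.1 to 226 and 229 CPM), and 1 fell, the coat protein Sec24a, which lay just under the limit without soft replicate 1 (log2 fold change -0.50) or stiff replicate 1 (-0.49).

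Genes of secreted liver proteins fell in part. Of 32 acute-phase genes 13 fell and 1 rose, with a median log2 change of -0.44. Lcn2, which binds bacterial iron carriers, was at 226 and 224 CPM on soft and 76.9998 and 72.9 CPM on stiff (log2 fold change -1.59, standard error 0.049, edgeR adjusted p = 2.37e-14). Steap4, a metalloreductase induced by inflammation, was at 337 and 316 CPM on soft and 111 and 109.9 CPM on stiff (log2 fold change -1.56, standard error 0.045, edgeR adjusted p = 1.01e-14). The serum amyloids Saa3 and Saa4 fell 3.07-fold and 2.44-fold, and Fgb, a fibrinogen chain, from 2195 and 2129.6 to 1427 and 1432 CPM. Hamp2, a relative of the iron hormone hepcidin, rose 4.39-fold at a low level. Hpx, hemopexin, the most abundant per length, was not called, at 9867 and 9784 CPM on soft and 8290.1 and 8205 CPM on stiff.

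Acute-phase genes are classical targets of C/EBP factors, so their promoters were read for TTGCNNAA on either strand. It was present in 14 of the 28 acute-phase promoters with a window (50.0%), against 8.45% of tested genes and 10.8% of all genes with one, and in the same number with only the 250 bases before the start. The promoters of Saa3 (chr7:46715677-46715926, minus strand) and Steap4 (chr5:7960222-7960471, plus strand), both among the falls with the word, are shown from RefSeq in GRCm38.p6, 5′ to 3′ up to the start, with the word in capitals.
Saa3: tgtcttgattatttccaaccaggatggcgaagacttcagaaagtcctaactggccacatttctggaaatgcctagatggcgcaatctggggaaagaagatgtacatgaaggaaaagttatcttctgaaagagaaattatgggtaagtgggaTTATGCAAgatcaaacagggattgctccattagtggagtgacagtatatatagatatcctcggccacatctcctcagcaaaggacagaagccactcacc
Steap4: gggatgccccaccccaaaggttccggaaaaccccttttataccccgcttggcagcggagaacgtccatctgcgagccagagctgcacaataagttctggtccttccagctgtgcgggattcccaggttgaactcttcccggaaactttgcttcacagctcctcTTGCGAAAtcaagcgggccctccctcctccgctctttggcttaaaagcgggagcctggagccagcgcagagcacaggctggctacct
The word begins 99 bases before the start in Saa3 and 87 bases before it in Steap4. The C/EBP word was not the only one frequent in these promoters. In the 250 bases before the start, 8 of the same 28 (28.6%) held the AP-1 word TGANTCA, against 4.63% of tested genes.

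Among the other plasma proteins, coagulation factors and inhibitors fell in 5 of 27 cases and rose in none (edgeR, none higher and 24 lower at an unadjusted p under 0.05, none higher under any alternative with the same limits). F7, the factor that starts clotting, went from 124 and 121 to 69.9 and 66.9 CPM (log2 fold change -0.84, standard error 0.050, edgeR adjusted p = 1.69e-10), and the inhibitors Serpinf2 and Serpina10 fell 1.68-fold and 1.78-fold. Complement genes rose in 2 (7.41%) and fell in 5 (18.5%) of 27 cases, beside 10.0% and 9.26% of all genes tested. Clu and Mbl2 were higher, and the component Hc (C5) fell from 369 and 364 to 239.8 and 242 CPM. Of 25 abundant carrier proteins 5 fell and none rose (edgeR, 9 higher and 12 lower at an unadjusted p under 0.05), and without stiff replicate 1 the counts were 3 and 1. Ahsg, fetuin A, went from 2347 and 2444 to 1422 and 1405 CPM (log2 fold change -0.76, standard error 0.029, edgeR adjusted p = 4.20e-13), and the macroglobulins Mug1 and Mug2, which share sequence, fell 1.67-fold and 1.6004-fold. Serpina7, which carries thyroid hormone, fell from 286 and 251 to 72.5 and 77.4 CPM (log2 fold change -1.84, standard error 0.061, edgeR adjusted p = 5.60e-14). Of 27 apolipoprotein and lipoprotein assembly genes 1 rose (3.70%) and 5 fell (18.5%), beside the same 10.0% and 9.26%. The rise was Angptl4, an inhibitor of lipoprotein lipase, at 86.7 and 86.98 CPM on soft and 207 and 209 CPM on stiff (log2 fold change 1.26, standard error 0.048, edgeR adjusted p = 3.79e-13), while its relative Angptl8 and the hepatic lipase Lipc fell 1.82-fold and 1.89-fold. Apoe was not called, at 10535 and 11056 CPM on soft and 10036 and 10216 CPM on stiff.

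Genes of sugar metabolism moved in both directions. Of 25 gluconeogenesis and glycogen genes 11 fell and 1 rose, and the median log2 change of -0.46 was the lowest of the 53 lists. G6pc, which releases free glucose at the end of gluconeogenesis, was at 53.1 and 57.98 CPM on soft and 16.5 and 16.9 CPM on stiff (log2 fold change -1.73, standard error 0.075, edgeR adjusted p = 2.44e-12). Gys2, the liver glycogen synthase, was at 54.1 and 54.9 CPM on soft and 17.9 and 19.3 CPM on stiff (log2 fold change -1.55, standard error 0.071, edgeR adjusted p = 4.84e-12). The glycogen targeting subunit Ppp1r3b and the branching enzyme Gbe1 fell 2.24-fold and 1.94-fold. Pygb, the brain form of glycogen phosphorylase, was the rise, 1.59-fold. In glycolysis 8 of 28 genes rose and 5 fell. The falls included a step of fructose entry. Khk, fructokinase, went from 426 and 446 to 228 and 242 CPM (log2 fold change -0.89, standard error 0.044, edgeR adjusted p = 1.35e-11). Hk2, the hexokinase of growing cells, rose 4.42-fold from a low level (1.85 and 2.17 CPM on soft and 8.73 and 8.89 CPM on stiff), and Pklr, the liver pyruvate kinase, rose from 395 and 407 to 849 and 853 CPM (log2 fold change 1.09, standard error 0.037, edgeR adjusted p = 1.04e-13). Gapdh was uneven between libraries (17.6 and 15.4 CPM on soft and 253 and 99.6 CPM on stiff) and its call was lost with robust empirical Bayes in edgeR (adjusted p = 0.0979). Of the pentose phosphate and nucleotide genes 5 of 38 rose (13.2%) and 3 fell (7.89%), near the 10.0% and 9.26% over all genes tested. Ctps, which makes CTP, and Tyms, which makes thymidylate, rose 2.24-fold and 1.56-fold, and Odc1, the first enzyme of polyamine synthesis, 1.596-fold.

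Most called genes of fatty acid synthesis and oxidation fell. Of 28 genes of lipogenesis and triglyceride synthesis 10 fell and none rose (edgeR, 5 higher and 20 lower at an unadjusted p under 0.05, none higher under any alternative with the same limits). Elovl2, which elongates polyunsaturated fatty acids, was at 281 and 271 CPM on soft and 107 and 108 CPM on stiff (log2 fold change -1.36, standard error 0.044, edgeR adjusted p = 4.24e-14). Scd1, the abundant desaturase, was lower by less than the limit, at 15142 and 14734 CPM on soft and 10928 and 11025 CPM on stiff. In fatty acid oxidation and ketogenesis 6 of 35 fell (17.1%, beside 9.26% of all genes tested) and 1 rose (2.86%, beside 10.0%). Bdh1, the last enzyme of ketone synthesis, was at 71.8 and 70.3 CPM on soft and 25.8 and 26.8 CPM on stiff (log2 fold change -1.43, standard error 0.064, edgeR adjusted p = 3.46e-12). The lipid droplet protein Cidec fell 2.59-fold, while Plin2, the most abundant in the list per length, was at 1054 and 1053 CPM on soft and 1491 and 1455 CPM on stiff and stayed under the limit (log2 fold change 0.48). Peroxisomal genes rose in 2 and fell in 7 of 37 cases, the falls led by the fatty acid transporter Abcd2 (2.79-fold) and by Uox, urate oxidase (371 and 369 to 148 and 146 CPM).

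Among 56 urea cycle and amino acid genes 13 fell (23.2%, beside 9.26% of all genes tested) and 6 rose (10.7%, beside 10.0%). Ass1, a step of the urea cycle with 50.6% of its windows shared with other genes, rose from 244 and 245 to 392 and 439 CPM, and Aass, the first step of lysine breakdown, rose 2.03-fold. Cbs and Gnmt, which handle homocysteine and methyl groups, rose 1.57-fold and 1.56-fold. Cdo1, which oxidizes cysteine, fell from 319.8 and 302 to 121 and 120.1 CPM (log2 fold change -1.37, standard error 0.046, edgeR adjusted p = 7.32e-14). Tdo2 of tryptophan breakdown and Hgd of tyrosine breakdown fell 2.22-fold and 2.18-fold. Glud1, glutamate dehydrogenase, the most abundant per length, was higher by less than the limit (1799.6 and 1831 CPM on soft and 2516 and 2510.2 CPM on stiff).

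Drug metabolism was lower in most called genes. Of 56 cytochromes P450 2 rose and 16 fell. Beside Cyp2e1 and Cyp1a2, Cyp2a5 went from 1002 and 1002 to 508 and 481 CPM (log2 fold change -1.02, standard error 0.034, edgeR adjusted p = 5.16e-14) and Cyp2c29 from 1329 and 1238 to 683 and 683 CPM (log2 fold change -0.91, standard error 0.042, edgeR adjusted p = 5.24e-12). Cyp2a5 shares 31.2% of its windows with other genes and its neighbour in sequence Cyp2a4 28.2%, while Cyp2c29 shares 0.72%. Cyp2a4 was not called, at 1615 and 1542 CPM on soft and 1792 and 1760.1 CPM on stiff. Of 62 phase II conjugating enzymes 5 rose and 19 fell, with 3 rises under DESeq2 or without stiff replicate 1. The glutathione transferases Gstm1 and Gsta4 fell, Gstm1 from 2409.8 and 2571 to 1514 and 1497 CPM and Gsta4 2.17-fold, and the glucuronosyltransferases Ugt2b5 and Ugt2b35 fell 2.31-fold and 2.58-fold. Aldh1a1, which makes retinoic acid, rose from 356 and 336 to 1026 and 1043 CPM (log2 fold change 1.58, standard error 0.050, edgeR adjusted p = 2.64e-14), and Nnmt, which methylates nicotinamide, rose from 23.7 and 20.4 to 82.7 and 81.5 CPM (log2 fold change 1.89, standard error 0.081, edgeR adjusted p = 2.08e-12).

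Of 58 solute carriers 23 fell (39.7%, beside 9.26% of all genes tested) and 6 rose (10.3%, beside 10.0%), with fewer rises without stiff replicate 2. The share of falls was higher in the gluconeogenesis and glycogen list (44.0%), the hepatocyte transcription factors (43.5%) and the acute-phase genes (40.6%). Slc16a10, an exporter of aromatic amino acids, was at 163 and 181 CPM on soft and 51.7 and 58.9 CPM on stiff (log2 fold change -1.64, standard error 0.063, edgeR adjusted p = 4.20e-13). Slc17a4, an organic anion transporter, went from 82.5 and 79.2 to 27.9 and 25.6 CPM (log2 fold change -1.59, standard error 0.062, edgeR adjusted p = 4.86e-13). The rises included Slco2a1, which takes up prostaglandins (189 and 191 to 385 and 384 CPM), and the taurine importer Slc6a6 (221 and 221 to 389 and 387 CPM). Abcb4, the phospholipid flippase of the canalicular membrane, is outside these lists and was among the largest losses in CPM, at 612 and 599 CPM on soft and 178 and 181 CPM on stiff (log2 fold change -1.75, standard error 0.038, edgeR adjusted p = 2.03e-16).

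Genes of the respiratory chain moved little. Of 77 nuclear genes of the respiratory chain none rose and 1 fell (edgeR, 14 higher and 5 lower at an unadjusted p under 0.05, 0 or 1 higher under the alternatives), with a median of 0.03. The call was Ndufs5 (23.1 and 20.8 CPM on soft and 13.2 and 9.76 CPM on stiff). None of the 15 mitochondrially encoded genes was called (edgeR, none higher and 9 lower at an unadjusted p under 0.05, at most 1 in a direction under the alternatives), with a median of -0.21, and mt-Co1 was at 14363 and 13863 CPM on soft and 11424 and 11628 CPM on stiff. The share of counts on mitochondrial genes was 3.44% and 3.20% on soft and 2.75% and 2.77% on stiff. Iron genes rose in 3 and fell in 3 of 24 cases (12.5% each), near the 10.0% and 9.26% over all genes tested. Tfrc, the transferrin receptor, rose from 30.6 and 29.5 to 64.3 and 65.5 CPM (log2 fold change 1.11, standard error 0.067, edgeR adjusted p = 2.30e-10), and the importer Slc39a14 fell from 252 and 245 to 154 and 152 CPM. Lysosome and autophagy genes rose in 2 (4.44%) and fell in 6 (13.3%) of 45 cases, beside the same 10.0% and 9.26%. The autophagy kinase Ulk1, the receptor Nbr1 and the lysosomal lipase Lipa fell 1.95-fold, 1.92-fold and 1.76-fold, and the protease Ctsl went from 2219 and 2115 to 1444 and 1455 CPM.

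Beyond the lists, the largest rises among genes with at least 100 counts on average included Fbln2, a matrix protein, at 4.24 and 4.22 CPM on soft and 35.2 and 36.7 CPM on stiff (log2 fold change 3.09, standard error 0.14, edgeR adjusted p = 5.20e-12), and Crct1, a gene of cornifying epithelium, at 33.4 and 39.5 CPM on soft and 291 and 281 CPM on stiff (log2 fold change 2.98, standard error 0.071, edgeR adjusted p = 7.17e-16). Sprr1a, another gene of the cornified envelope, was among the largest gains in CPM (775 and 799 to 1349.9 and 1368 CPM). The receptors P2rx5 and P2ry14 for extracellular nucleotides rose 7.202-fold and 5.97-fold, the scaffold Akap12 6.83-fold, the small heat shock protein Cryab 6.83-fold, the intermediate filament Nes 6.31-fold, the actin elongation factor Enah 6.02-fold, the membrane repair protein Myof 5.84-fold and Fgd3, an activator of Cdc42, 5.203-fold. The largest falls included Arrdc3, an arrestin-like protein that removes receptors from the surface, at 115 and 102 CPM on soft and 13.9 and 14.9 CPM on stiff (log2 fold change -2.92, standard error 0.071, edgeR adjusted p = 1.00e-15), and Rgs16, which turns off G protein signals, at 179 and 184 CPM on soft and 35.1 and 38.4 CPM on stiff (log2 fold change -2.30, standard error 0.053, edgeR adjusted p = 4.31e-16). Atp13a4, a transport ATPase, fell 8.35-fold, the matrilin Matn2 6.73-fold, the chromatin protein Hmga2 6.03-fold, the aldehyde oxidase Aox3 5.39-fold and the adenosine receptor Adora1 5.15-fold.

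Of 820 long non-coding RNAs tested 50 rose (6.10%) and 92 fell (11.2%), with a median log2 change of -0.21. Of 12450 protein-coding genes 1333 rose (10.7%) and 1174 fell (9.43%), with a median of -0.0027. Of 705 processed pseudogenes 40 rose (5.67%) and 26 fell (3.69%), with a median of 0.098. By level, 4.34% of the 1911 genes under 1 CPM were called higher and 8.63% lower, with a median log2 change of -0.25. Of genes between 1 and 10 CPM 16.1% were called higher and 12.9% lower, beside 8.27% and 7.44% of those between 10 and 100 CPM.

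RNA of cells other than hepatocytes was present at low levels, and markers of endothelial, Kupffer and stellate cells fell where they were called, with few exceptions. Of 17 endothelial markers tested of 18, 10 fell and 1 rose, and their sum was 165 and 163 CPM on soft and 124 and 126 CPM on stiff. Of 17 Kupffer cell and macrophage markers of 19, 8 fell and none rose (edgeR, none higher and 10 lower at an unadjusted p under 0.05, none higher under any alternative), or 4 without soft replicate 1 and under DESeq2 on the 4 wild-type libraries alone, with a sum of 470.1 and 450.3 CPM against 226 and 236 CPM. Most of that sum was Cd14, which hepatocytes also make, at 359 and 342 CPM on soft and 152 and 155 CPM on stiff. Of the stellate cell markers, whose counts stand with the matrix genes above, Lrat and Tcf21 held 0 to 2 counts in a wild-type library. Of 10 cholangiocyte markers of 15, 3 rose and 2 fell, with a sum of 852 and 825 CPM against 1036 and 1024 CPM, while Cftr, Tff2 and Sctr held 0 counts in each wild-type library. Of 16 lymphocyte and neutrophil markers none passed the filter on low counts, and 8 held 0 counts in each wild-type library. Among the largest falls over all genes, Trdc, the constant region of the T cell receptor delta chain, was at 22.1 and 22.7 CPM on soft and 4.19 and 5.03 CPM on stiff. Of the lymphocyte markers, Cd3e held 0 counts in each wild-type library, and Cd3g held 2 and 1 counts on soft and 0 and 0 on stiff. The source of the Trdc counts was not tested. The part of these cells in the changes of Ccl5, Col3a1, Dcn, the interferon genes and other genes they express was not tested.

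The same gels gave few changes in Yap/Taz knockout hepatocytes. There 3 genes were called (0.0210%), and the stiffness effect differed between the genotypes in 2405 genes (16.8%, edgeR's interaction term with the same limits). Of the 2754 genes called in wild type, 2026 were among these. The median log2 change in knockout was 0.01 for the genes called higher and 0.01 for those called lower in wild type. These comparisons use all 8 libraries, and the genotype effect shares the wild-type libraries with the stiffness effect. For 722 of the 1432 rises, all 4 knockout libraries lay under both soft wild-type libraries, and for 72 they lay above both (50.4% and 5.03%). For 582 of the 1322 falls, all 4 knockout libraries lay above both soft wild-type libraries, and for 181 under both (44.02% and 13.7%). Over all genes tested the 4 knockout libraries lay under both soft wild-type libraries for 2874 (20.1%) and above both for 2669 (18.7%). G6pc had 99.9, 103, 91.4 and 102 CPM in the knockout libraries, above both its soft (53.1 and 57.98 CPM) and stiff (16.5 and 16.9 CPM) wild-type values, and Csf1 had 27.2, 28.3, 25.9 and 25.5 CPM, below both.

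**Figure D4:**
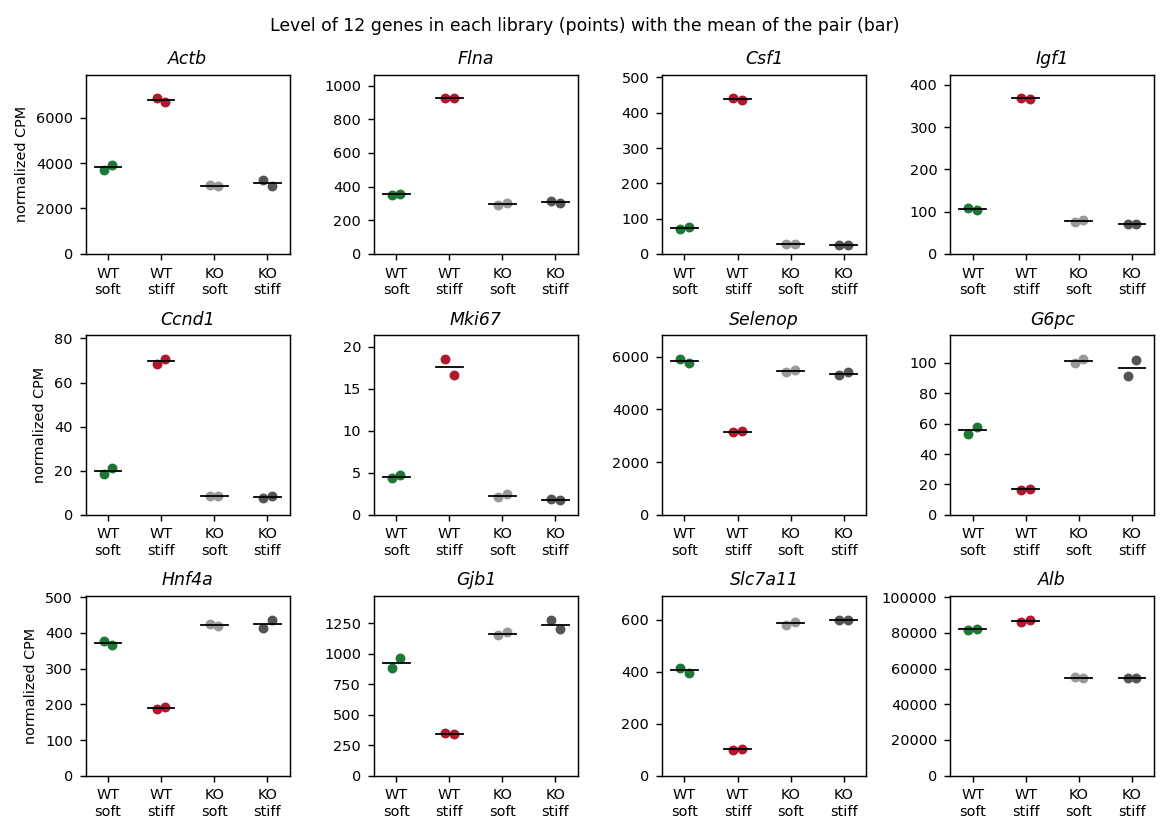
Normalized CPM of 12 genes in each of the 8 libraries on linear axes from 0, with a bar at the mean of each pair. In wild type (WT) the stiff pair lies above the soft pair for Actb, Flna, Csf1, Igf1, Ccnd1 and Mki67 and below it for Selenop, G6pc, Hnf4a, Gjb1 and Slc7a11, Alb differs little, and the Yap/Taz knockout (KO) pairs lie close together.

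A few named genes rest on counts that could be divided between genes. Ccnd1, Erbb2, Lamb3, Vcl, Tgfb2, Col4a2, Chaf1a, Ccne2, Atf5, Nrg4, Irak3, Nhp2, Angptl8, Mmp19, Per3 and P2ry14 overlap another gene that holds at least 0.1 times their count, and how strand entered the counting is not given in the sources used here. Each gene's longest GENCODE M21 transcript was also cut into windows of 64 bases. The share of windows that occurs in another gene was 45.4% for Ifit3, 44.9% for Loxl2, 44.1% for Rpl17, 37.9% for Mug2, 35.4% for Odc1, 34.1% for Ugt2b5, 27.5% for Hnrnpa1, 27.3% for Pcna, 27.2% for Ndufs5, 24.7% for Gapdh and 24.2% for Krt8, so reads of these genes could have been divided or dropped.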

How the data were processed

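RNA from mouse primary hepatocytes was poly-A selected and sequenced by the authors as paired reads of 150 bases. The authors aligned reads to the mouse genome with HISAT2 (version 2.0.5) and counted them per gene with featureCounts, and the deposited values are raw counts. The submitters' processing notes name mm9, but 329 of 14116 tested genes have the position given in GENCODE M21, so no deposited positions are printed. The annotation release, strand setting and treatment of multimapping reads are not given in the sources used here. Multimapping reads that were dropped or divided would lower the counts of genes with shared sequence.

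The 8 libraries were grouped by genotype and gel from their labels and fitted together in edgeR 4.0.16 (R 4.3.3), with filterByExpr, TMM scaling, 1 term a group and the quasi-likelihood test. P-values were adjusted by Benjamini-Hochberg over all tested genes, and genes were called at an adjusted p under 0.05 where the log2 fold change exceeded 0.5 in size. Folds are the fitted log2 fold changes put on the linear scale. Standard errors were derived from the log2 fold change and the F statistic. With 3 counts as the floor, the libraries reach 0.113 to 0.164 CPM, which covers counting error only. Alternatives were DESeq2 1.42.0, other scalings, filters and fold limits, robust empirical Bayes (limma 3.58.1), a replicate block and leaving out each library.

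Named genes are, for each list, up to 4 of the largest rises and falls among called genes that averaged at least 100 counts, and the most abundant member per length. To these were added the 25 largest rises and falls (mean of at least 100 counts), the 15 largest gains and losses in CPM, Yap1 and Wwtr1. Other genes named were picked after their values were seen, and some genes that the rule names are not reported here. The members and lists were chosen with earlier results of these data known. Promoter windows of RefSeq (GRCm38.p6) matched 72.3% of tested genes by identifier or symbol. Shares are given for lists with at least 80% matched, and none for the called genes as a whole, of which fewer had a window.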

Additional observations from a re-analysis of the deposited data

Results flagged for a closer look

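The stiffness effect differed between wild-type and Yap/Taz knockout hepatocytes in 2405 genes by the interaction term of edgeR's quasi-likelihood test with the same limits. Of these, 12 genes among those with the largest called gains and losses in CPM are given here as the log2 effect in wild type minus that in knockout, 2 libraries a group. Among the rises in wild type the difference was 0.59 for Clu, 0.77 for Actb, 0.52 for Krt8, 0.71 for Krt18, 0.64 for Fn1 and 1.70 for Ccn1, with standard errors of 0.04 to 0.07. In knockout these genes had log2 effects of 0.02 to 0.07. Among the falls in wild type it was -0.86 for Selenop, -0.78 for Gstm1, -0.78 for Ahsg, -2.34 for Igfbp1, -0.54 for Fgb and -0.53 for Ctsl, with standard errors of 0.03 to 0.05. In knockout these genes had log2 effects of -0.06 to 0.06. The highest edgeR adjusted p among the 12 genes was 4.905e-08, for Fgb. The genes were chosen by their wild-type change, which is also part of the difference, so these p-values are not a separate test. With 2 libraries a group, no test for single outlying libraries was possible.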

How the results depend on the processing

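The number of genes called in wild type was within 1.5 times of 2754 under every alternative that kept the limits: DESeq2 gave 2389 with 8 libraries and 2240 with 4, other scalings 2754 to 2757, and other filters on low counts 2371 to 2906. With an absolute log2 fold change over 1 it was 1244 (699 higher, 545 lower), and 1040 for the difference between genotypes. With no minimum fold change it was 5859 (3006 higher, 2853 lower), and 4192 for the difference. Leaving out 1 library gave 2428 to 2594 calls (1275 to 1401 higher, 1153 to 1216 lower) and 2111 to 2451 for the difference. The labels do not say whether the replicate numbers pair the samples, and the main fit did not pair them. The correlation of deviations between replicates was 0.085 between soft and stiff wild type, and -0.288 to 0.331 between the other pairs of groups. A fit with a replicate block called 2705 genes (1408 higher, 1297 lower) and 2330 for the difference. Over the fits that leave out a library, the median of the aminoacyl-tRNA synthetases ranged from -0.0088 to 0.0534 and the log2 changes of the uncalled gene Spp1 from -0.0040 to 0.0959, gene Cox6a1 from -0.163 to 0.0796 and gene Ftl1 from -0.119 to 0.0157, with the sign turned without soft replicate 2. The cause of these changes was not tested. Of 315 named genes called, 22 lost the call under some alternative other than the stricter fold limit. The median log2 change of all genes was -0.0169 to -0.0008 under the other scalings, beside -0.0087. A group of 2 libraries limits how well the spread is known, and leaving out a library leaves a lone one assumed to vary like the others. At 18324083 to 26442310 counts, genes under 1 CPM rest on few reads.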
